A study of Mus musculus with 6 samples.

Results

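CC chemokines are small secreted proteins, named for a pair of adjacent cysteines near the amino terminus, that draw leukocytes toward the cells that release them. Alveolar macrophages, which live in the alveoli and clear inhaled particles, are a source of several of them. The genes described here are Ccl2, Ccl3, Ccl4, Ccl5, Ccl6, Ccl7, Ccl9, Ccl17, Ccl22 and Ccl24, which make up 10 of the 23282 rows of the count table. They were picked by symbol with their levels in the knockout and the wildtype libraries already known. Their differences between the genotypes are therefore given as a description, and the tool calls printed for them are no independent evidence.

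RNA was measured in macrophages sorted from mouse lung as CD45+, CD11c+, F4/80+, SiglecF+ and CD11b- cells. The 3 Sdha-KO libraries came from mice with floxed Sdha and LysM-Cre, a Cre recombinase expressed from the Lyz2 locus in myeloid cells generally. The other 3 libraries came from wildtype (WT) mice. The product of Sdha is the FAD-binding subunit of succinate dehydrogenase, an enzyme of the tricarboxylic acid cycle and complex II of the respiratory chain. The labels give no age or sex, no treatment and no Cre-only or floxed-only control. They do not say whether a library holds 1 mouse or a pool, so spread between libraries may be partly technical. Each of 3 batch numbers holds 1 library of each genotype.

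Chemokines act on G protein-coupled receptors of leukocytes. CCL3 and CCL5 bind CCR1, which is the receptor of the mouse chemokines CCL6 and CCL9 as well. CCL2 and CCL7 recruit monocytes through CCR2. CCL17 and CCL22 act on CCR4 of T cells and CCL24 on CCR3 of eosinophils.

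The libraries held 5400160 to 8472907 counts. Of these, Rn45s, a ribosomal RNA precursor, made up 20.9%, 43.4% and 48.2% in Sdha-KO replicates 1 to 3. It made up 36.3%, 57.6% and 44.7% in WT replicates 1 to 3. Counts were scaled to CPM, the count per 1000000 counts of the library, with factors for library composition. Sdha averaged 23.3 ± 2.44 CPM in Sdha-KO libraries and 63.9 ± 7.15 CPM in WT libraries (SD, n = 3), with no overlap. This 3' count may lie outside the deleted exons. Both batch 1 libraries were poorer than the rest, with 5438 genes detected in Sdha-KO replicate 1 and 7893 in WT replicate 1, against 11383 to 13050 in the other 4 libraries. A count of 0 there allows up to 3 counts, 0.249 CPM in Sdha-KO replicate 1 and 0.371 CPM in WT replicate 1, for counting error only. All 14 genes of an alveolar macrophage marker list had counts and were tested. Their summed level was 7040 to 9182 CPM in Sdha-KO libraries and 8493 to 9811 CPM in WT libraries. Much of it was Chil3, with means of 4316 and 4685 CPM. Of the 14 genes, 9 were lower and 5 higher in Sdha-KO by log2 fold change. All Sdha-KO libraries lay below all WT libraries for 5 and above them for 1, against 9.0% and 5.25% of all tested genes. At an unadjusted p under 0.05 in edgeR there were 6, against 2.64% of all tested genes. Siglecf, whose protein was used in the sort, had 0, 39.9 and 45.2 CPM in Sdha-KO replicates 1 to 3 and 104, 136 and 129 CPM in WT replicates 1 to 3. The 1 list gene that passed the test, Ear1, which belongs to a family of closely similar ribonuclease genes and is uncertain for that, fell by 2.24 on the log2 scale (SE 0.322, edgeR adjusted p = 0.0280).

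In the GENCODE M21 annotation of mm10, 7 of the 10 genes lie on chromosome 11 in 2 groups. Ccl2 and Ccl7 sit 8.26 kb apart, and 1478 kb further on follow Ccl5, Ccl9, Ccl6, Ccl3 and Ccl4. Ccl22 and Ccl17 lie 58.8 kb apart on chromosome 8, and Ccl24 lies on chromosome 5. Ccl6 and Ccl9 are neighbours with 9.24 kb between them, and they alone have 4 exons where the other 8 genes have 3. Across the 45 pairs of coding sequences the median identity was 48.8%. Ccl3 and Ccl4 were the closest pair at 68.1% and Ccl6 and Ccl9 the next at 64.6%. No exon of the 10 genes overlaps an exon of another annotated gene. Stretches of 50 bases found in transcripts of other genes were absent from 9 of the 10 transcripts. They made up 59 of 2957 stretches in Ccl9, with 0 in its last 500 bases, where a 3' kit reads.

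The sequences before the gene starts are shown for the 4 genes whose Sdha-KO libraries all lay above all WT libraries. RefSeq promoter windows on GRCm38.p6 were found for these 4 and for Ccl22, so 5 of 10 matched, and that of Ccl22 is not printed because its RefSeq start lies inside the GENCODE gene. Each line holds the 250 bases before the start, 5′ to 3′ on the gene's strand. They come from chr11:83578637-83578886 for Ccl9, chr11:83593088-83593337 for Ccl6, chr11:83649379-83649628 for Ccl3 (all on the minus strand) and chr8:94810203-94810452 for Ccl17 (plus strand). Capitals in Ccl9 and Ccl17 mark the motif matches described next. Capitals in Ccl6, which held no match, mark the longest run of bases it shares with Ccl9.
Ccl9: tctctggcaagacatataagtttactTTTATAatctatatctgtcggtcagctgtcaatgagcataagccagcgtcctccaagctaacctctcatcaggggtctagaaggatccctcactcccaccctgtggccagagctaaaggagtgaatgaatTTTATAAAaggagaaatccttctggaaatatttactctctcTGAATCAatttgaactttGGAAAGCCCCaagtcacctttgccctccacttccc
Ccl6: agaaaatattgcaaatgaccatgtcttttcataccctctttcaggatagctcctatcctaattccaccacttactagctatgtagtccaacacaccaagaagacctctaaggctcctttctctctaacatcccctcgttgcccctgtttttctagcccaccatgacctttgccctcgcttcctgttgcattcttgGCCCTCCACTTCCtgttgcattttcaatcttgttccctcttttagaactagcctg
Ccl3: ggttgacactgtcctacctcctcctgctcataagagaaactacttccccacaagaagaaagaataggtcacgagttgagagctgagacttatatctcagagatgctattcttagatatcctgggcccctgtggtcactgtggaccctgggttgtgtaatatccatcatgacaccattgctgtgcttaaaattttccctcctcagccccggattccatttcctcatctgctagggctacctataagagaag
Ccl17: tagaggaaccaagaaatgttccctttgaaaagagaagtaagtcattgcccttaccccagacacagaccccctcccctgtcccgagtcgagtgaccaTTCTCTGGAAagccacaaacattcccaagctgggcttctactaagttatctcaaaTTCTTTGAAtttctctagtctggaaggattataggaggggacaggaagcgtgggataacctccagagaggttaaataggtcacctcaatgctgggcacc

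The motifs searched, on both strands, were the TATA box (TATAAA), AP-1 (TGANTCA), STAT (TTCNNNGAA), the wider STAT6 form (TTC and GAA with 4 bases between them), the NF-kB consensus, the HIF core (ACGTG) and C/EBP (TTGCNNAA). Ccl9 held an NF-kB match starting at position -35 and an AP-1 match at position -53, counted from the gene start. Of 32851 mouse promoter windows of the same length, 3.90% hold the NF-kB consensus and 6.75% the AP-1 motif. Ccl9 also held 3 TATA box matches, 2 of them overlapping (12.4% of windows hold one). Ccl17 held a STAT6 match at position -154 and a STAT match at position -99, found in 5.85% and 7.02% of windows. No motif matched in Ccl3, Ccl6 or Ccl22, and the HIF core (16.6% of windows) and C/EBP (9.56%) matched in none of the 5. The longest run shared by any pair was the 13 bases GCCCTCCACTTCC of Ccl9 and Ccl6, at position -14 in Ccl9 and -55 in Ccl6. A match describes letters only, and binding was not measured.

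Ccl6 was by far the most abundant of these chemokine RNAs in both genotypes, and Ccl9, Ccl3, Ccl6 and Ccl17 were higher in every Sdha-KO library than in any WT library. These were 4 of the 10 genes. Among all 9963 genes that passed a filter on low counts, 5.25% had all Sdha-KO libraries above all WT libraries and 9.0% had them below. In edgeR's quasi-likelihood fit over those 9963 genes, all 8 members that passed the filter had a positive log2 fold change, against 45.7% of all tested genes, with a median of 2.53 for the 8 and -0.12 for all. Ccl7 and Ccl24 did not pass the filter. None of the 8 passed a Benjamini-Hochberg adjusted p of 0.05, where 0.0502% of all tested genes did, 5 in number. At an unadjusted p under 0.05 there were 4 of the 8, against 2.64% of all tested genes, and DESeq2 called 1, Ccl9, with 0.248% of all genes given an adjusted p. Since the genes were picked on this contrast, nothing is read from these counts.

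**Figure D1:**
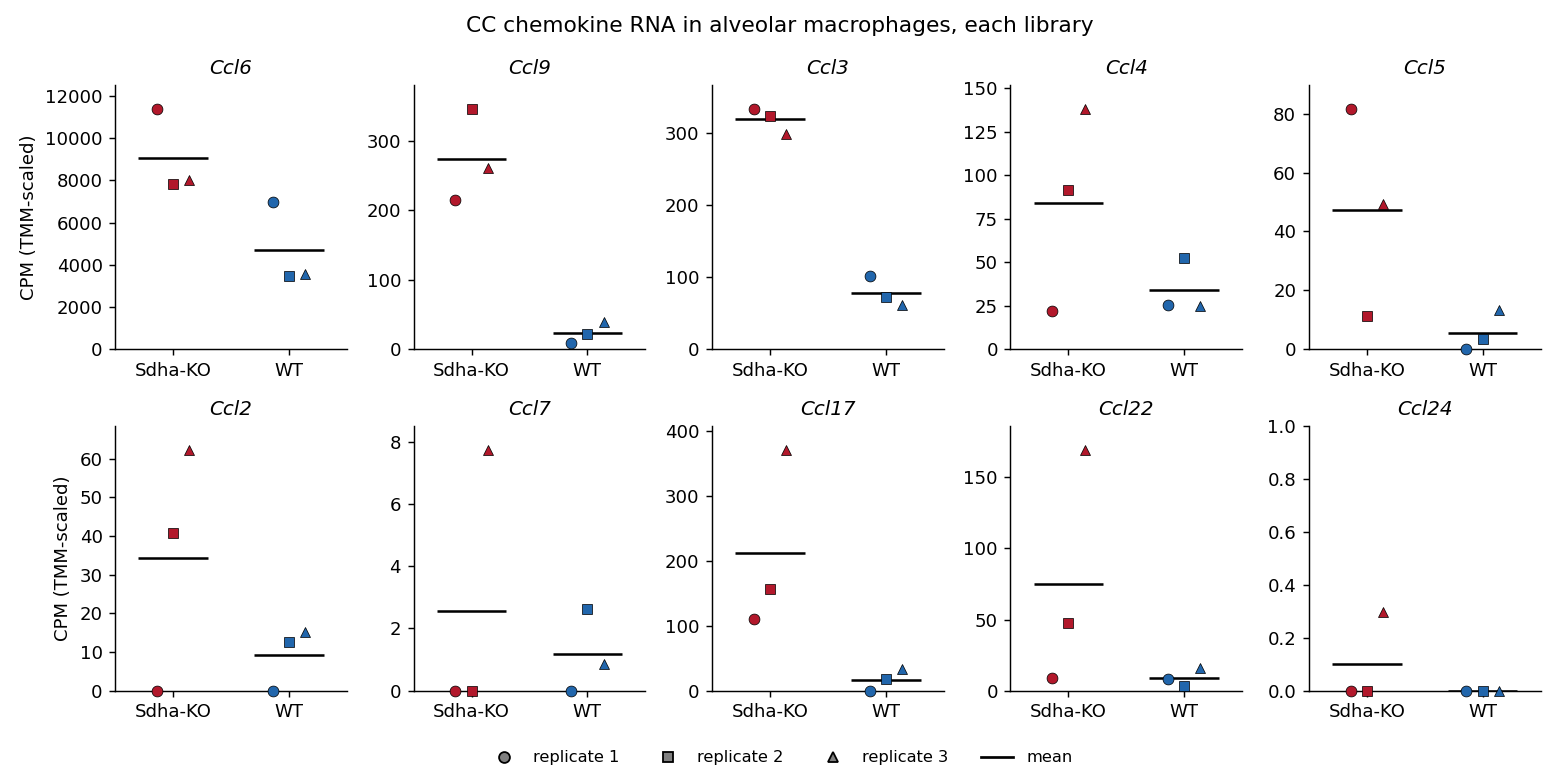
Level of each of the 10 CC chemokine RNAs in each library, in TMM-scaled CPM on a linear axis that starts at 0 and differs between panels. Symbols mark the replicate number and bars the mean of 3 libraries. Sdha-KO libraries stand above all WT libraries for Ccl6, Ccl9, Ccl3 and Ccl17, and batch 1 libraries (circles) are at 0 for Ccl2 and Ccl7.

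CCL6 and CCL9 are chemokines found in rodents that attract myeloid cells. Ccl6 (chr11:83587882-83593087) had 11375, 7811 and 8010 CPM in Sdha-KO replicates 1 to 3, against 6997, 3481 and 3575 CPM in WT replicates 1 to 3. The lowest Sdha-KO library lay just above the highest WT library, which was the batch 1 library, and replicate 1 was the highest of its genotype in both. Sdha-KO averaged 9065 ± 2003 CPM and WT 4685 ± 2003 CPM (SD, n = 3), a log2 fold change of 0.95 (SE 0.305), or 1.94-fold. Ccl6 made up 85.5% to 93.7% of the counts of the 10 genes in Sdha-KO libraries and 94.6% to 98.0% in WT libraries, so a sum over the 10 mostly reports this gene. All 10 together held 0.866% to 1.73% of the counts in Sdha-KO libraries and 0.288% to 0.702% in WT libraries. These are shares of all counts, Rn45s included. The Rn45s share was lowest in Sdha-KO replicate 1 and highest in WT replicate 2, so these shares also vary with it.

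Ccl9 (chr11:83572919-83578636) had 2593, 1846 and 1752 counts in Sdha-KO replicates 1 to 3, against 72, 102 and 317 counts in WT replicates 1 to 3. In CPM these were 215, 346 and 261 in Sdha-KO and 8.89, 22.4 and 39.5 in WT. Every Sdha-KO library was far above any WT library, and the WT libraries spread more, for their level, than the Sdha-KO libraries. Sdha-KO averaged 274 ± 66.5 CPM and WT 23.6 ± 15.3 CPM (SD, n = 3), a log2 fold change of 3.54 (SE 0.575), or 11.6-fold. In the same cells its neighbour Ccl6 differed 1.94-fold. A test of the difference between these neighbours was not run, since both were picked on this contrast.

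CCL3, CCL4 and CCL5 are inflammatory chemokines that macrophages release early in activation. Ccl3 (chr11:83647844-83649355) had 333, 324 and 299 CPM in Sdha-KO replicates 1 to 3, against 101, 72.4 and 62.1 CPM in WT replicates 1 to 3. The Sdha-KO values lay close together and far from all WT values. Sdha-KO averaged 319 ± 17.7 CPM and WT 78.5 ± 20.2 CPM (SD, n = 3), a log2 fold change of 2.02 (SE 0.380), or 4.06-fold.

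Ccl4 (chr11:83662584-83664683), the nearest relative and neighbour of Ccl3, had 22.0, 91.7 and 138 CPM in Sdha-KO replicates 1 to 3, against 25.6, 52.4 and 24.7 CPM in WT replicates 1 to 3. Sdha-KO replicate 1 lay below all 3 WT libraries, and the other 2 Sdha-KO libraries lay above them. The log2 fold change was 1.29 (SE 0.777). Ccl5 (chr11:83525778-83530518) had 81.6, 11.4 and 49.2 CPM in Sdha-KO replicates 1 to 3, against 0, 3.51 and 13.5 CPM in WT replicates 1 to 3. The ranges overlapped because Sdha-KO replicate 2 lay under WT replicate 3. The log2 fold change was 3.06 (SE 1.84).

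T and NK cells also express Ccl5. Of 9 genes of a T and NK cell marker list in the table, 7 had a count, and Cd8a and Ncr1 were at 0 in every library. The summed level of the list was 5.62 to 28.3 CPM in Sdha-KO libraries and 0 to 16.0 CPM in WT libraries. In Sdha-KO replicate 1, where Ccl5 was highest, the whole sum was Cd4, and Cd3e and Nkg7 were at 0. The F4/80, CD11c and SiglecF gates are meant to leave out these cells, and how far they did so was not measured here. The part of T and NK cells in the Ccl5 level was not tested. In bulk libraries more cells of a type and more RNA per cell cannot be told apart.

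Neutrophils also express Ccl3 and Ccl4. A neutrophil marker list had counts for 8 of 8 genes, and its sum was 171 to 220 CPM in Sdha-KO libraries and 72.6 to 108 CPM in WT libraries, without overlap. All 4 tested genes of the list had a positive log2 fold change, as did 45.7% of all tested genes, with a median of 1.15 for the 4. Cxcr2 had 4.73, 81.5 and 28.4 CPM in Sdha-KO replicates 1 to 3 and 0.494, 11.4 and 0.873 CPM in WT replicates 1 to 3, and Mmp8 had 88.6, 49.1 and 11.5 CPM in Sdha-KO and 15.1, 21.9 and 18.2 CPM in WT. S100a8 had 74.6, 57.6 and 69.0 CPM in Sdha-KO and 92.5, 31.4 and 37.9 CPM in WT, while Csf3r had at most 1 count in any Sdha-KO library and 0, 25 and 35 counts in WT. The CD11b- gate is meant to leave out neutrophils, and how far it did so was not measured here. The part of these cells in the chemokine levels was not tested.

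CCL2 and CCL7 are monocyte attractants. Ccl2 (chr11:82035571-82037453) had 0, 218 and 418 counts in Sdha-KO replicates 1 to 3, against 0, 57 and 121 counts in WT replicates 1 to 3. This was 0, 40.9 and 62.2 CPM in Sdha-KO and 0, 12.5 and 15.1 CPM in WT. Both batch 1 libraries had no count, so the genotypes could be set side by side in batches 2 and 3 alone, where Sdha-KO was higher. The fitted log2 fold change of 1.90 had an SE of 2.27, and was 1.15 without Sdha-KO replicate 3 and 1.28 without WT replicate 1.

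Ccl7 (chr11:82045712-82047525) had 0, 0 and 52 counts in Sdha-KO replicates 1 to 3, against 0, 12 and 7 counts in WT replicates 1 to 3. It pointed one way in batch 2 and the other way in batch 3. Interstitial macrophages and monocytes also make these chemokines. Of 9 genes of the interstitial macrophage list 8 had a count, Folr2 was at 0 in every library, and the sum, largely Mrc1, which alveolar macrophages express too, was 49.4 to 610 CPM in Sdha-KO libraries and 447 to 994 CPM in WT libraries. The monocyte list had counts for 8 of 8 genes and summed to 50.5 to 212 CPM in Sdha-KO libraries and 169 to 206 CPM in WT libraries. Most of the monocyte sum was Fn1 and Nr4a1. Ly6c2 was at 0 in all Sdha-KO libraries and at 22 counts in WT replicate 3 alone, whereas Plac8 had 13.1 CPM in Sdha-KO replicate 3 and 3.62 CPM in WT replicate 3 and was at 0 elsewhere. Ccr2, which monocytes express, was higher in every Sdha-KO library than in any WT library (values given with the receptors). Their part in Ccl2 and Ccl7 was not tested.

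CCL17 and CCL22 are attractants of T cells that macrophages and dendritic cells release, among other settings under interleukin-4. Ccl17 (chr8:94810453-94812036) had 1333, 835 and 2488 counts in Sdha-KO replicates 1 to 3, against 0, 79 and 271 counts in WT replicates 1 to 3. In CPM these were 111, 157 and 370 in Sdha-KO and 0, 17.3 and 33.8 in WT. All Sdha-KO libraries were well above all WT libraries, and replicate 3 was the highest of each genotype. Sdha-KO averaged 212 ± 138 CPM and WT 17.0 ± 16.9 CPM (SD, n = 3). The log2 fold change was 3.64 with an SE of 1.67, since the counts within each genotype spread widely, and it ranged from 2.97 without Sdha-KO replicate 3 to 4.63 without WT replicate 3.

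Ccl22 (chr8:94745590-94751699) had 8.71, 47.6 and 169 CPM in Sdha-KO replicates 1 to 3, against 8.40, 3.07 and 15.8 CPM in WT replicates 1 to 3. Sdha-KO replicate 1 lay inside the WT range, and the other 2 Sdha-KO libraries lay above it. The log2 fold change was 3.04 (SE 1.20). It was 1.63 without Sdha-KO replicate 3, the library with the highest Ccl22.

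Dendritic cells are known for high Ccl17 and Ccl22. A list of conventional dendritic cell markers, which leaves out both chemokines, had counts for 11 of 11 genes. Its sum was 44.6 to 316 CPM in Sdha-KO libraries (median 89.8) and 15.6 to 48.7 CPM in WT libraries (median 20.1), and was highest in Sdha-KO replicate 3, as were Ccl17 and Ccl22. Of 6 tested genes of the list, 5 had a positive log2 fold change and 1 a negative one (45.7% of all tested genes were positive). Their median was 2.32. Flt3 and Zbtb46, which define these cells, were at 0 in Sdha-KO replicates 1 and 2. They had 4.91 and 6.40 CPM in Sdha-KO replicate 3, and 0.499 and 0 CPM in WT replicate 3. Fscn1 had 0, 0.562 and 92.5 CPM in Sdha-KO replicates 1 to 3 and 0, 0 and 5.98 CPM in WT. Clec10a had 0, 7.12 and 8.77 CPM in Sdha-KO and 0, 0 and 0.499 CPM in WT. Batf3 overlapped, with 0, 0 and 26.0 CPM in Sdha-KO and 1.24, 9.65 and 10.8 CPM in WT. Cd209a had 0, 37.7 and 17.8 CPM in Sdha-KO replicates 1 to 3 and 0, 0.439 and 4.74 CPM in WT. Itgae had 0, 10.9 and 9.22 CPM in Sdha-KO and 0, 0 and 0.623 CPM in WT. Xcr1, the negative one, had 0.166, 0.375 and 15.9 CPM in Sdha-KO and 18.9, 2.63 and 4.99 CPM in WT. In Sdha-KO replicate 1, where the sum was 44.6 CPM, nearly all of it came from Cacnb3 (39.4 CPM) and Ccr7 (4.98 CPM), and 8 of the 11 genes were at 0. Cacnb3 had 39.4, 2.81 and 23.9 CPM in Sdha-KO replicates 1 to 3 and 0, 0 and 4.99 CPM in WT replicates 1 to 3. The F4/80 and SiglecF gates are meant to leave out most conventional dendritic cells, and how far they did so was not measured here. The part of dendritic cells in Ccl17 and Ccl22 was not tested.

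Ccl24 (chr5:135569937-135573049), which encodes an eosinophil attractant, had 2 counts in Sdha-KO replicate 3 and 0 in the other 5 libraries, WT included. It was not detectable at this depth, and no fold is given.

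The order of levels was read from the mean CPM, which 3' counts allow since they do not scale with transcript length. In Sdha-KO libraries Ccl6 came first, at 28.4 times the mean of Ccl3, followed by Ccl9, Ccl17, Ccl4, Ccl22, Ccl5, Ccl2, Ccl7 and Ccl24. Only Ccl6 and Ccl3 stood apart, and every later pair of neighbours overlapped over the 3 libraries. In WT libraries Ccl6 came first at 59.7 times the mean of Ccl3, and Ccl3 was 2.29 times Ccl4 with no overlap. Ccl9, Ccl17, Ccl2, Ccl22, Ccl5, Ccl7 and Ccl24 followed, each overlapping its neighbour. Ccl9 was thus in place 3 in Sdha-KO and in place 4 in WT, and Ccl17 in place 4 in Sdha-KO and in place 5 in WT.

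Within batches, CPM of the Sdha-KO library was set against that of the WT library with the same number. Replicate 3 showed 9 genes higher and 0 lower in Sdha-KO, replicate 2 showed 8 higher and 1 lower, and replicate 1 showed 6 higher and 1 lower. The remaining genes had 3 counts or fewer in both libraries. Ccl3, Ccl5, Ccl6, Ccl9 and Ccl17 were higher in Sdha-KO in all 3 batches, as were 11.7% of all tested genes.

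The size of the differences varied with the batch in different ways. Ccl6 (log2 ratios of 0.70, 1.17 and 1.16 in replicates 1 to 3) and Ccl3 (1.72, 2.16 and 2.27) varied little. Ccl9 had log2 ratios of 4.60, 3.95 and 2.72, so that its difference was widest in batch 1. Ccl22 had 0.05, 3.96 and 3.42 and Ccl4 had -0.22, 0.81 and 2.48, so that theirs were narrowest in batch 1. In batch 1 the WT library had no count of Ccl5 or Ccl17. Against the 3 counts that a 0 allows, Sdha-KO was at least 220.1-fold higher for Ccl5 and at least 298-fold higher for Ccl17 there, in a WT library that lacked many transcripts. In batches 2 and 3 the log2 ratios were 1.70 and 1.87 for Ccl5, 3.18 and 3.45 for Ccl17 and 1.71 and 2.04 for Ccl2.

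**Figure D2:**
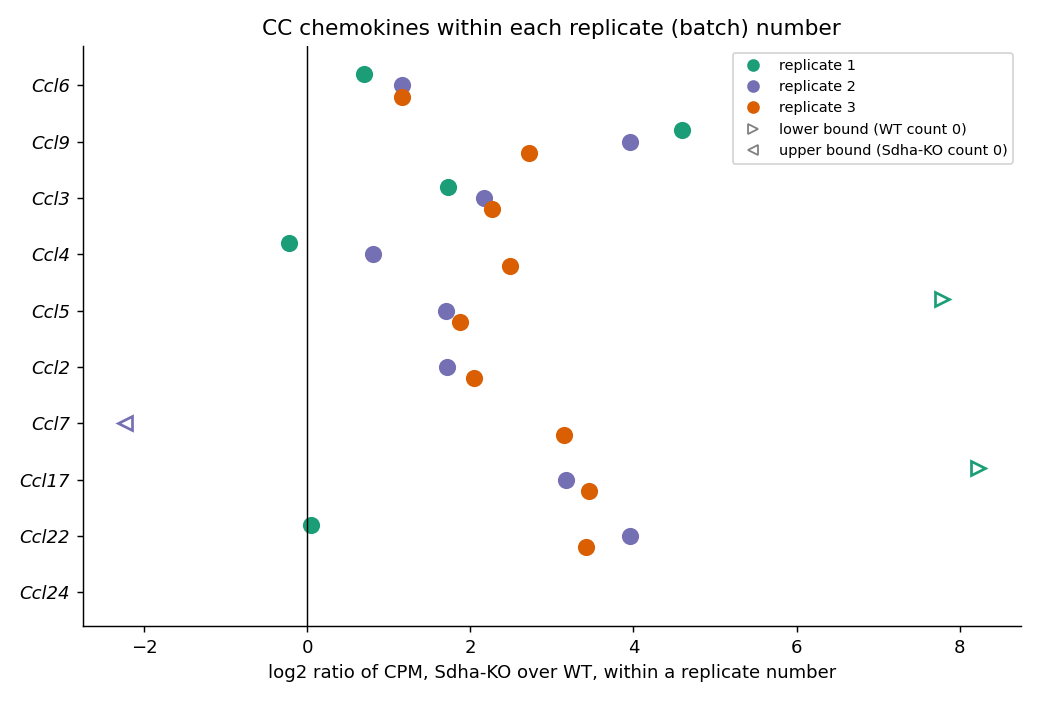
Log2 ratio of CPM, Sdha-KO over WT, of each gene within replicates 1 to 3. Open triangles are bounds where 1 library had no count, taken as 3 counts, and pairs with 3 counts or fewer in both libraries are not drawn. Ccl4 in replicate 1 and Ccl7 in replicate 2 are the points below 0.

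Without both batch 1 libraries, which left 2 libraries per genotype, all Sdha-KO libraries lay above all WT libraries for 7 of the 10 genes, as they did for 21.4% of tested genes. In that fit 2 of 9 tested members passed edgeR's adjusted p of 0.05, Ccl3 and Ccl9, against 0.251% of all tested genes. Adding the replicate number as a block, a fit with 1 degree of freedom left, 6 passed (Ccl2, Ccl3, Ccl6, Ccl9, Ccl17 and Ccl22), against 3.01% of all tested genes. Xist, transcribed in females, had 498 and 822 counts in these Sdha-KO libraries against 4608 and 6055 in the WT libraries, and Ddx3y, a Y-linked gene, had 354 and 432 counts in Sdha-KO against 0 and 143 in WT. Genotype and sex mix cannot be told apart in these 4 libraries. Batch 1 ran the other way, with 2683 Xist and 0 Ddx3y counts in Sdha-KO replicate 1 against 0 Xist and 222 Ddx3y counts in WT replicate 1, so the sex mix also differs between genotypes within each batch of the 6-library fit. With all 6 libraries and the block no gene passed (289 at an unadjusted p under 0.05), and the members' log2 fold changes ranged from 1.01 for Ccl4 and Ccl6 to 4.73 for Ccl17. Ccl9 also passed without WT replicate 2 or without WT replicate 3 (0.112% and 0.125% of tested genes). No member passed without Sdha-KO replicate 1, 2 or 3, where 0.0272%, 0.0645% and 0.0189% of tested genes did, or without WT replicate 1, where none did. Ccl9 passed when scaled by library totals alone (0.0903% of tested genes), and Ccl3, Ccl6 and Ccl9 passed with no filter (0.312%). Without Sdha-KO replicate 1, all Sdha-KO libraries lay above all WT libraries for 7 of the 10 genes (16.3% of tested genes), and without WT replicate 3 for 6 (7.29%). Without WT replicate 3 the log2 fold change of Ccl5 was 4.76, and without both batch 1 libraries it was 1.81. The log2 fold changes of the 8 tested members were positive in 104 of 104 alternative values. For scale, the median over all tested genes shifted by 0.17 (log2) with library totals alone and by -0.35 with the block.

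**Figure D3:**
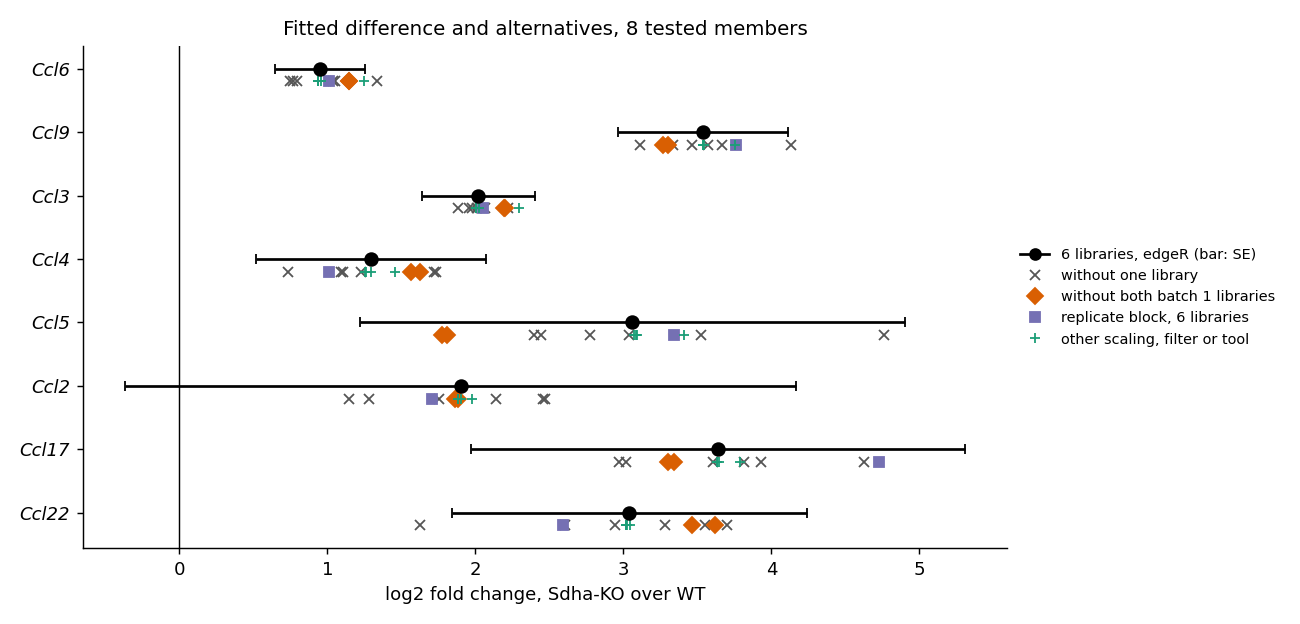
Log2 fold change, Sdha-KO over WT, of the 8 tested members. Black points are the fit to 6 libraries with bars of 1 SE, and the symbols under each point are the 13 alternatives. All values lie above 0, and the SE bar of Ccl2 crosses 0.

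The receptors of these chemokines were examined next, with the other genes of the pathway, from lists that leave out the 10 genes. Of 16 genes of the CC chemokine receptor list, 12 had a count and 5 passed the filter. None of the 5 passed the test (edgeR, and 0 in DESeq2). In edgeR 1 had an unadjusted p under 0.05, against 2.64% of all tested genes. The median log2 fold change was 1.57 against -0.12 for all tested genes.

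Ccrl2, which encodes an atypical receptor that binds chemerin and does not signal, was the most abundant at 225, 311 and 251 CPM in Sdha-KO replicates 1 to 3 and 52.1, 69.1 and 143 CPM in WT replicates 1 to 3. Its groups did not overlap (log2 fold change 1.57, SE 0.456, edgeR adjusted p = 1.00). Ccrl2, Ccr7, Cxcl1 and Mmp12 were among 10 pathway genes that passed in the 4 libraries of batches 2 and 3 with the block. The others were Atf3, Cxcl16, Il12b, Relb, Zfp36 and Zfp36l1. Of all tested genes 3.01% passed there, and the sex mix differed between the genotypes. Ccr2, the receptor of CCL2 and CCL7, had 78.6, 27.9 and 68.0 CPM in Sdha-KO and 5.44, 12.9 and 21.1 CPM in WT replicates 1 to 3, again without overlap (log2 fold change 2.14, SE 1.09, edgeR adjusted p = 1.00), and was at 1.48 on that scale without both batch 1 libraries.

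Ccr1, the receptor of CCL3, CCL5, CCL6 and CCL9, had 20.6, 35.4 and 28.4 CPM in Sdha-KO and 10.4, 40.4 and 39.6 CPM in WT replicates 1 to 3. Its groups overlapped fully (log2 fold change -0.10, SE 1.23, edgeR adjusted p = 1.00). Its sign turned in 5 of 13 alternatives, among them scaling by library totals alone and the replicate block.

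Ccr7, which guides dendritic cells to lymph nodes and is also on the dendritic cell list, had 4.98, 27.7 and 96.5 CPM in Sdha-KO and 0, 2.19 and 9.35 CPM in WT replicates 1 to 3. Its groups overlapped, with Sdha-KO replicate 1 under WT replicate 3 (log2 fold change 3.48, SE 2.02, edgeR adjusted p = 1.00). Without Sdha-KO replicate 3 it was at 2.08 and without WT replicate 3 at 5.30. Ccr4, the receptor of CCL17 and CCL22, had 10 counts in Sdha-KO replicate 1 and 1 in WT replicate 3, and Ccr3, the receptor of CCL24, had 1 count in WT replicate 2. Ccr6, Ccr8, Ccr9, Ccr10 and Ackr2 were each under the filter, with 65 counts or fewer in any library.

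**Figure D4:**
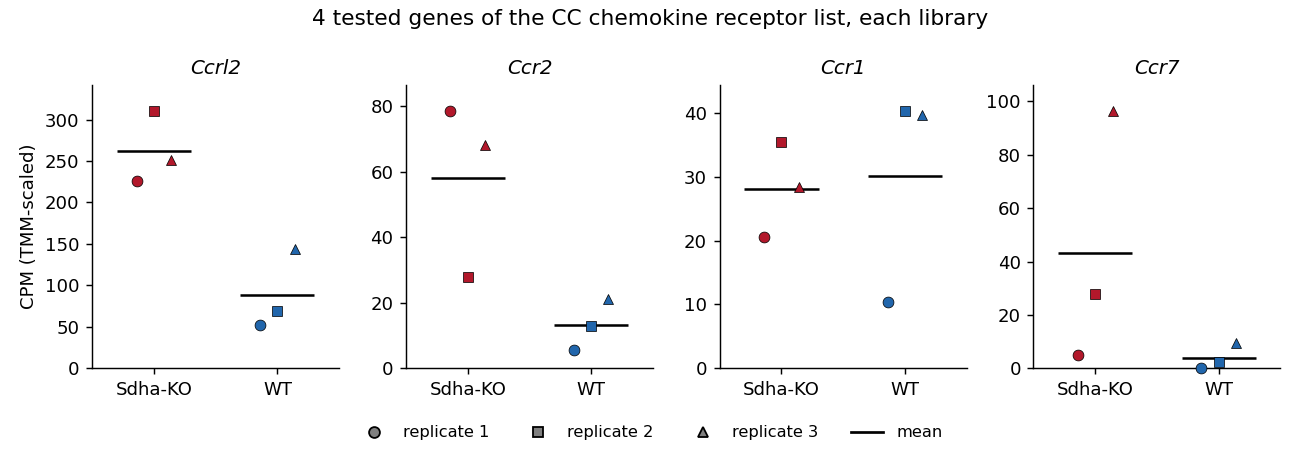
Level of 4 tested genes of the receptor list in each library, in TMM-scaled CPM on linear axes that start at 0. Symbols mark the replicate number and bars the mean of 3 libraries. Sdha-KO libraries lie above all WT libraries for Ccrl2 and Ccr2, while the groups overlap for Ccr1 and Ccr7.

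No gene of the other pathway lists passed the test. Over all 6 lists, 0 of 54 tested genes passed (edgeR, where 0.0502% of all tested genes did, and 0 in DESeq2). At an unadjusted p under 0.05 in edgeR there were 7, against 2.64% of all tested genes, a share that also stands beside each list below. A positive log2 fold change was seen for 42 of the 54, against 45.7% of all tested genes. The lists were chosen with earlier results of these data known, so nothing is read from these counts. Of the 12 CC chemokine genes outside the 10, 5 were at 0 in every library and 2 were tested, with 0 at an unadjusted p under 0.05. Ccl27a, a chemokine of skin, had 17.1 ± 17.1 CPM in Sdha-KO libraries and 31.7 ± 28.7 CPM in WT libraries (SD, n = 3), and its exons overlap those of Il11ra1, so its count is uncertain. Ccl25, a chemokine of thymus and gut whose exons overlap those of Elavl1, had 0, 15.4 and 0 CPM in Sdha-KO and 0, 3.29 and 1.62 CPM in WT replicates 1 to 3.

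Of 17 other chemokine genes, 7 were tested and none passed (1 at an unadjusted p under 0.05). Cxcl1, a neutrophil attractant, had 52.4, 127 and 133 CPM in Sdha-KO and 32.0, 32.7 and 20.9 CPM in WT replicates 1 to 3, without overlap (log2 fold change 1.87, SE 0.639, edgeR adjusted p = 1.00). Cxcl2, its relative, had 461, 3148 and 1594 CPM in Sdha-KO and 58.6, 778 and 1086 CPM in WT replicates 1 to 3. It was higher in Sdha-KO in each batch, but the groups overlapped (log2 fold change 1.44, SE 1.08, edgeR adjusted p = 1.00). Without Sdha-KO replicate 2 it was at 0.68 and without WT replicate 3 at 2.05.

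Of 11 macrophage cytokine genes, 8 were tested and none passed (2 at an unadjusted p under 0.05). Il1b, which encodes interleukin-1 beta, had 541, 649 and 723 CPM in Sdha-KO and 71.7, 110 and 439 CPM in WT replicates 1 to 3, and its exons overlap those of an antisense gene. Its groups did not overlap (log2 fold change 1.62, SE 0.616, edgeR adjusted p = 1.00), and it passed without WT replicate 3, at a log2 fold change of 2.82. Tnf had 213, 467 and 314 CPM in Sdha-KO and 86.0, 51.5 and 247 CPM in WT replicates 1 to 3, with overlap (log2 fold change 1.37, SE 0.552, edgeR adjusted p = 1.00), and was at 2.27 on that scale without WT replicate 3.

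Regulators of chemokine transcription and mRNA decay numbered 26, all tested, with none past the threshold (3 at an unadjusted p under 0.05) and a median log2 fold change of 0.68. Nfkbia, the NF-kB inhibitor that NF-kB itself induces, had 2141, 3666 and 3953 CPM in Sdha-KO and 431, 773 and 1842 CPM in WT replicates 1 to 3. The groups did not overlap (log2 fold change 1.68, SE 0.505, edgeR adjusted p = 1.00), and it passed without WT replicate 3, at a log2 fold change of 2.44. Fos, an AP-1 subunit, had 496 ± 385 CPM in Sdha-KO and 689 ± 108 CPM in WT libraries (SD, n = 3), with overlap. Its log2 fold change was -0.48, and -1.21 without Sdha-KO replicate 2.

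Proteases that trim chemokines numbered 12, with 6 tested and none past the threshold (0 at an unadjusted p under 0.05). Mmp12, the macrophage elastase, had 187, 117 and 187 CPM in Sdha-KO and 0, 33.1 and 23.3 CPM in WT replicates 1 to 3, without overlap. Its log2 fold change was 3.12 (SE 1.60, edgeR adjusted p = 1.00), and its exons overlap those of Mmp1b. It was at 2.51 without WT replicate 1 and 3.77 without WT replicate 2. Adam17 had 107 ± 9.93 CPM in Sdha-KO and 94.3 ± 19.4 CPM in WT libraries (SD, n = 3), with overlap, and shares exon positions with Iah1.

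**Figure D5:**
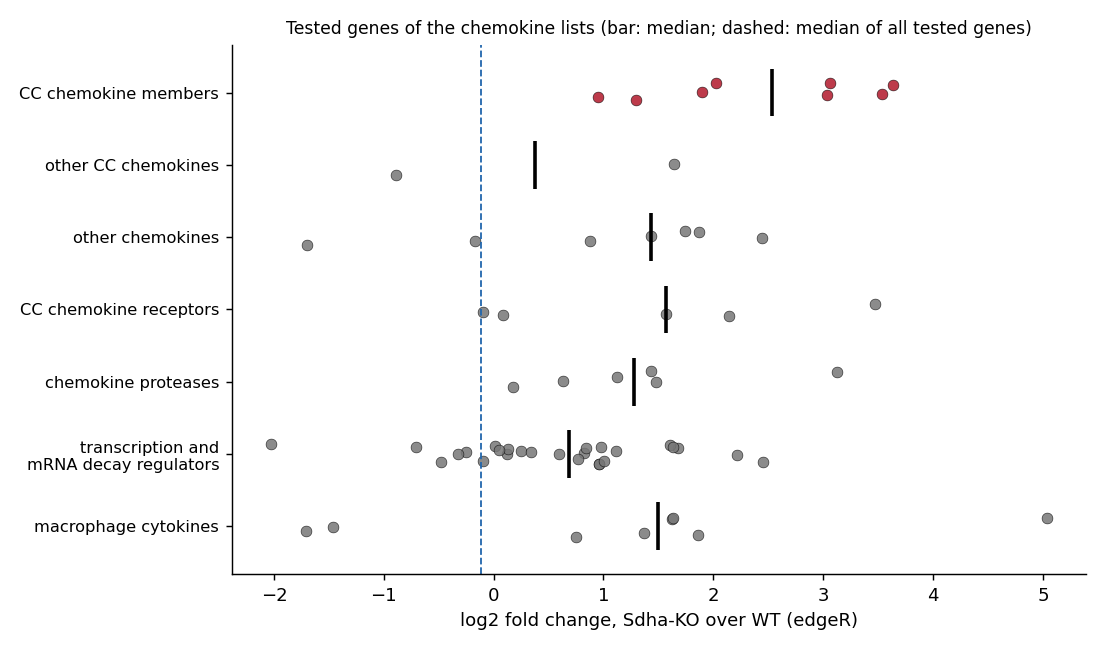
Log2 fold change, Sdha-KO over WT, of the tested genes of each chemokine list, with the list median as a bar and the median of all 9963 tested genes, -0.12, as a dashed line. Each point is 1 gene and vertical scatter has no meaning. The 8 tested members were picked on this contrast. The other lists were drawn up by function, also with earlier results of these data known.

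The genes most like 3 of the members were found by Pearson's correlation of log2(CPM + 1) over the 6 libraries, among 6537 genes with a mean of at least 10 CPM. The points share library, batch and genotype, so a high value includes the genotype difference. Closest to Ccl9 were Eno1b (r = 0.996), Litaf (0.995) and Rgs1 (0.994). Closest to Ccl3 were Esd (0.983), Rpl23 (0.982) and Gadd45gip1 (0.980), and closest to Ccl6 were Gpnmb (0.996), Eif3f (0.995) and Tpt1 (0.995). Between members, r was 0.93 for Ccl9 and Ccl17, 0.89 for Ccl3 and Ccl6, 0.59 for the neighbours Ccl6 and Ccl9 and 0.45 for the neighbours Ccl3 and Ccl4 (n = 6 libraries each).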

How the data were processed

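RNA was measured in 3 Sdha-KO and 3 WT libraries made with a QuantSeq 3' mRNA kit, per the labels' protocols. The authors deposited raw read counts per gene symbol. Bowtie2, bedtools and mm10 are named in the submitters' processing notes, and the sources used here do not give versions, annotation, strand use or the handling of reads with several matches. Repeated symbols (44 rows) were kept apart. The smallest chi-square between any 2 libraries was 36.5 per degree of freedom, so none was a copy of another.

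Genotypes were compared with edgeR 4.0.16 in R 4.3.3 (quasi-likelihood F-test with robust moderation, TMM scaling, filterByExpr at 10 counts, and genotype as the only term) on all 9963 genes kept, with Benjamini-Hochberg adjustment and a threshold of 0.05. The SE is the log2 fold change divided by the square root of F. The fit was tested on simulated data with less spread between libraries than these data have. That test does not show how well the fit calls genes at the spread seen here. DESeq2 1.42.0 was an alternative, with other scaling, no filter, the replicate block and libraries left out. The members and lists were chosen with earlier results of these data known. Named were the 10 members, Sdha, list genes past the threshold or else the 2 most abundant tested ones, receptors with a count (1 receptor is not reported here), and the 3 genes most like Ccl9, Ccl3 and Ccl6. Other names, such as markers, were chosen after values were seen. Replicate numbers equal the labels' batch numbers, so they pair libraries. Deviations from group means correlated across genes at 0.147, 0.134 and 0.103 within numbers and from -0.149 to 0.0875 between them.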

Additional observations from a re-analysis of the deposited data

How the results depend on the processing

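Over all genes, edgeR called 5. The count was 21 with DESeq2, 9 with library totals alone (all 9 higher, against 4 of 5), 48 without a filter, 0 with the replicate block, 27 without both batch 1 libraries and 324 there with the replicate block. It was 0 to 13 leaving out 1 library each. Members called, 0 of 8 tested, were 1 with DESeq2 and 1 with library totals alone (Ccl9), 3 without a filter (Ccl3, Ccl6 and Ccl9), 2 without both batch 1 libraries, 6 there with the replicate block and 0 to 1 leaving out 1 library. Pathway genes called, 0 of 54, were 2 without a filter (Atf3 and Il1b) and 0 to 2 leaving out 1 library. They were 10 without both batch 1 libraries with the replicate block, where 3.01% of all tested genes were called. Members with all Sdha-KO above all WT libraries, 4 of 10, were 7 without both batch 1 libraries and 4 to 7 leaving out 1 library (that count's alternatives were chosen after seeing the data). The cause of these moves was not tested.

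The replicate block with 6 libraries changed no call of a member or pathway gene. Member log2 fold changes moved by less than 1 SD between replicates in 102 of 104 alternative values. Genes whose direction turned were not called in any setting. Ccl25 was at -0.76 with the replicate block, -0.78 with it in batches 2 and 3 and -6.70 to 2.58 leaving out 1 library. Ccr1 was at 0.15 with library totals alone, 0.10 with the replicate block and -0.54 to 0.15 leaving out 1 library. Ccl27a was at -1.91 to 0.16 leaving out 1 library. Ccl7, Ccl24 and Ccr4 had too few counts to pass the filter with 6 libraries. Without a filter all 10 members were tested and had a positive log2 fold change. In batches 2 and 3 with the replicate block, 1 of 9 tested members, Ccl7, had a negative one.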
